A study of Arabidopsis thaliana with 20 samples.

Results

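UNUSUAL FLORAL ORGANS (UFO, AT1G30950, chromosome 1) and RABBIT EARS (RBE, AT5G06070, chromosome 5) are regulators of petal development in Arabidopsis thaliana. Their transcripts were followed here through the first days of synchronous flower formation. The members were taken as the probes annotated to these loci, which are 2 of 30194 probes, 1 for each gene. They are 2 of 17185 genes that were named by a probe and tested. Both probes gave a value on all 20 arrays, and 0 of these values stood at the limit of the scale.

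UFO encodes an F-box protein, the substrate-binding subunit of an SCF ubiquitin ligase, and works with the transcription factor LEAFY (LFY) to switch on APETALA3 (AP3), a gene of petal and stamen identity. RBE encodes a zinc finger protein related to SUPERMAN. It is known from petal primordia and their precursor cells, where it is needed for petals to start and grow. In the wild type both genes are expressed in small, changing domains of the young flower.

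The plants carried the mutations ap1 and cal and the transgene 35S:AP1-GR, in which the constitutive 35S promoter drives a fusion of the floral regulator AP1 with the ligand-binding domain of a glucocorticoid receptor. Without hormone such plants keep making inflorescence-like meristems, and dexamethasone lets the fusion protein enter the nucleus so that many flowers start together. Inflorescences were treated just after bolting with 1 µM dexamethasone in dilute ethanol and Silwet L-77. Tissue of about 25 pooled plants was taken close to the inflorescence surface for each of days 0, 1, 2, 3, 4 and 5, in 4 independent sets. All time points share the ap1 and cal background, and no untreated time course was analysed here, so AP1 activity, the treatment itself and plant age cannot be told apart as sources of a change.

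Each array compared consecutive days of 1 set in 2 colours, and each of the 5 intervals was covered by 4 arrays, 2 for each dye assignment. Each value is a log10 ratio, later day over earlier day, so 0.30 is about a doubling, and each was tested with limma over 28633 features (genes or unnamed probes) with p-values adjusted by the Benjamini-Hochberg method and called under 0.05. The log base was read from the data, and the direction is the likely one because the numerator of the ratios is not given in the sources used here. With the other numerator every rise below is a fall. A ratio gives no absolute level, the tissue was dissected in bulk, and fewer cells of a type and less RNA per cell cannot be told apart.

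UFO rose in the first day after activation and did not pass the test again until it fell from day 3. From day 0 to day 1 its log10 ratios were 0.40, 0.37, 0.11 and 0.32 in sets 1 to 4. All 4 sets lay above 0, with set 3 the lowest. The mean was 0.30 ± 0.13 (SD, n = 4), a 1.99-fold rise (95% interval of the fit 0.21 to 0.39, adjusted p = 8.14e-04), and 1.15% of all features passed the test as higher in this interval. Without set 2 the mean was 0.27 and the call was lost (adjusted p = 0.0680). UFO ranked 410 from the top of all features by the size of its rise.

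RBE rose in the same interval in every set. Its log10 ratios from day 0 to day 1 were 0.52, 0.51, 0.38 and 0.66 in sets 1 to 4. The lowest RBE value lay just below the highest UFO value, and within each set RBE was the higher of the pair. The mean was 0.52 ± 0.11 (SD, n = 4), a 3.28-fold rise (95% interval 0.40 to 0.63, adjusted p = 4.01e-05), which ranked 127 from the top. This call was kept when each set was left out in turn, with means of 0.48 to 0.55.

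**Figure D1:**
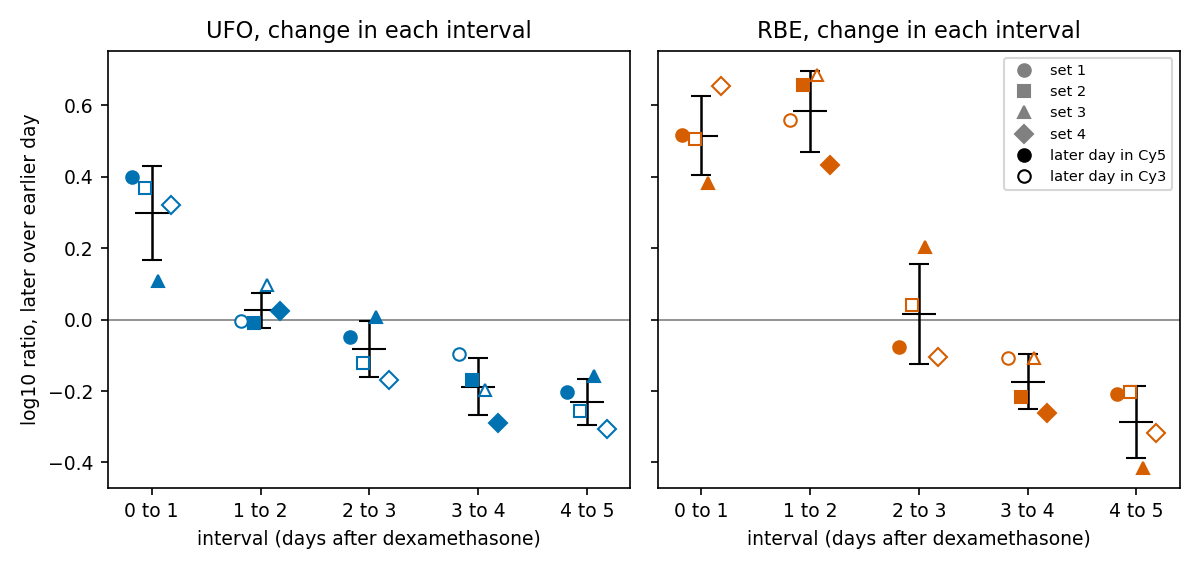
Log10 ratios, later day over earlier day, for UFO and RBE, with 1 point per tissue set (filled where the later day was in Cy5) and black bars for the mean and SD (n = 4) of each of the 5 intervals. Both genes lie above 0 from day 0 to day 1, RBE alone lies far above 0 from day 1 to day 2, and both lie below 0 from day 3 to day 4 and from day 4 to day 5.

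From day 1 to day 2 RBE rose again while UFO stayed near its new level. The RBE ratios were 0.56, 0.66, 0.68 and 0.43 in sets 1 to 4. All 4 lay within the range spanned by the previous interval or just above it. The mean was 0.58 ± 0.11 (SD, n = 4), a 3.83-fold rise (95% interval 0.47 to 0.70, adjusted p = 1.59e-04), in an interval in which 0.733% of features passed as higher. It ranked 63 from the top. Without set 2 the mean was 0.55 and the call was lost (adjusted p = 0.1004). In that fit limma called 0 features in this interval, so the loss is not particular to RBE.

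For UFO the ratios of the same interval were -0.0052, -0.011, 0.097 and 0.024. They lay on both sides of 0, and the highest came from set 3, the set with the smallest rise a day earlier. The mean was 0.026 ± 0.049 (95% interval -0.066 to 0.12, adjusted p = 0.846). Sets 1 to 4 thus reached a summed ratio of 0.40, 0.36, 0.20 and 0.34 at day 2 against day 0.

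From day 2 to day 3 neither gene passed the test, and 0.419% of features did. The UFO ratios were -0.050, -0.12, 0.0086 and -0.17, lower in 3 of 4 sets. Their mean was -0.083 ± 0.079 (95% interval -0.18 to 0.0093, adjusted p = 0.644). The RBE ratios were -0.076, 0.042, 0.20 and -0.10, higher in 2 sets and lower in 2. Their mean was 0.016 ± 0.14 (95% interval -0.096 to 0.13, adjusted p = 0.971), with the widest spread of any interval for RBE.

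From day 3 to day 4 both genes were lower in all 4 sets, and UFO alone passed the test. The UFO ratios were -0.098, -0.17, -0.20 and -0.29 in sets 1 to 4. Their mean was -0.19 ± 0.080 (95% interval -0.28 to -0.096), 1.54-fold lower (adjusted p = 0.0427), and 0.37% of features passed as lower. The call was lost with the tissue set as a block (adjusted p = 0.0811). It was also lost without set 1, 2 or 4, with means of -0.22, -0.19 and -0.16 (adjusted p = 0.163, 0.303 and 0.435).

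The RBE ratios of that interval were -0.11, -0.22, -0.11 and -0.26. They overlapped those of UFO over most of their range. Their mean was -0.17 ± 0.078 (95% interval -0.29 to -0.062), a factor of 1.49, with an unadjusted p of 0.00456 that did not pass after adjustment (adjusted p = 0.163). The call of UFO and the missing call of RBE do not show that the genes differed here: RBE minus UFO was 0.015 on average, from -0.048 to 0.089 over the sets.

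From day 4 to day 5 both genes fell. The UFO ratios were -0.20, -0.26, -0.16 and -0.31, a mean of -0.23 ± 0.065 (95% interval -0.32 to -0.14). The RBE ratios were -0.21, -0.20, -0.42 and -0.32, a mean of -0.29 ± 0.10 (95% interval -0.40 to -0.17). All 8 values lay below 0 and the genes overlapped, with set 3 the smallest fall for UFO and the largest for RBE. The falls were 1.70-fold for UFO (adjusted p = 0.0186) and 1.93-fold for RBE (adjusted p = 0.0160), where 0.196% of features passed as lower. With arrays scaled to 1 spread neither call was kept (UFO -0.21, adjusted p = 0.140, and RBE -0.26, adjusted p = 0.245). The RBE call was lost without each of the 4 sets in turn (means -0.33 to -0.25, adjusted p = 0.0832 to 0.176), and the UFO call without set 1, 2 or 4 (means -0.24, -0.22 and -0.20, adjusted p = 0.0984, 0.237 and 0.229).

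Whether the change of a gene differed between intervals was tested with an F statistic over the 5 interval means. It passed for UFO (adjusted p = 8.21e-04) and for RBE (adjusted p = 1.33e-05), as it did for 3.12% of features. Without set 2 the UFO test did not pass (adjusted p = 0.104), while that of RBE passed without each set in turn. The test of any change at all ranked RBE 8 and UFO 153 of 28633 features (adjusted p = 8.83e-06 and 4.69e-04), with 5.32% of features passing.

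The step at which each rise stopped was tested as the difference between consecutive intervals. UFO changed less from day 1 to day 2 than from day 0 to day 1, by -0.27 (95% interval -0.40 to -0.14, adjusted p = 0.0418, and 0.0851 with the tissue set as a block). For this difference 1.26% of features were called. For RBE the same difference was 0.068 (95% interval -0.090 to 0.23, adjusted p = 0.693). RBE changed less from day 2 to day 3 than from day 1 to day 2, by -0.57 (95% interval -0.73 to -0.41, adjusted p = 0.00988, and 0.0554 with the block). Only 0.0175% of features were called for that difference, and RBE was the 1 feature (0.00349%) called in the downward direction.

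Neither difference kept its call with arrays scaled to 1 spread (UFO -0.31, adjusted p = 0.0602, and RBE -0.52, adjusted p = 0.377), and that of UFO missed the threshold without a dye coefficient (adjusted p = 0.05001). Both were kept without set 3 and lost without set 1, 2 or 4, with -0.22, -0.23 and -0.27 for UFO (adjusted p = 0.280, 0.317 and 0.191) and -0.57, -0.53 and -0.56 for RBE (adjusted p = 0.389, 0.933 and 0.168). By their set number, consecutive intervals of a set share the tissue of the middle day. An error in RNA used for both would enter the 2 intervals with opposite sign, and this was not modelled.

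Summed within each set, the ratios give the level against day 0. RBE stood far above its starting level from day 2 on. At day 2 its sums were 1.07, 1.16, 1.07 and 1.09 in sets 1 to 4. The sets lay closer together than in either of the intervals that make up the sum. The mean was 1.10 ± 0.044 (SD, n = 4), a 12.6-fold rise (adjusted p = 0.00690), which ranked 23 of 28630 features, and 0.381% of features passed as higher.

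At day 3 the RBE sums were 1.00, 1.21, 1.27 and 0.98, a 13.0-fold rise (1.11 ± 0.15, adjusted p = 0.0266, with 0.231% of features higher). At day 4 they were 0.89, 0.99, 1.16 and 0.72, an 8.73-fold rise (0.94 ± 0.18, adjusted p = 0.0218, with 0.688% higher). At day 5 they were 0.68, 0.79, 0.75 and 0.40, a 4.52-fold rise (0.65 ± 0.17, adjusted p = 0.0301, with 1.57% higher). Every set was above its own day 0 at each of these days, and set 4 was the lowest at days 3, 4 and 5. The calls at days 2, 3, 4 and 5 were lost without each set in turn, though the means moved little: 1.08 to 1.11, 1.06 to 1.16, 0.87 to 1.01 and 0.61 to 0.74. The lowest adjusted p without a set was 0.0654. As sums of the interval coefficients from the fit to all arrays the rises at these days had adjusted p-values of 4.50e-07, 6.26e-06, 6.96e-05 and 0.00388, where 1.23%, 1.16%, 1.8% and 1.8% of features were called higher.

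UFO came back towards its starting level. At day 2 its mean sum was 0.33 ± 0.083 (SD, n = 4), 2.12-fold, with an adjusted p of 0.0550 that missed the threshold. The interval coefficients from all arrays gave 0.00685 for the same change. At day 3 its sums were 0.35, 0.24, 0.21 and 0.17 (mean 0.24 ± 0.073, adjusted p = 0.128). At day 4 they were 0.25, 0.069, 0.015 and -0.12 (mean 0.054 ± 0.15, adjusted p = 0.788). At day 5 they were 0.046, -0.19, -0.14 and -0.42 (mean -0.18 ± 0.19, 95% interval -0.40 to 0.046, adjusted p = 0.382). Without set 1 the day 4 mean was -0.011, and leaving out any other set gave 0.049 to 0.11. Without set 4 the day 5 mean was -0.094, and leaving out any other set gave -0.25 to -0.17. The direction at day 4 and the size at day 5 thus depended on single sets. By day 5 set 1 stood just above its day 0 and the other sets below, with set 4 the lowest, as it was for RBE.

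**Figure D2:**
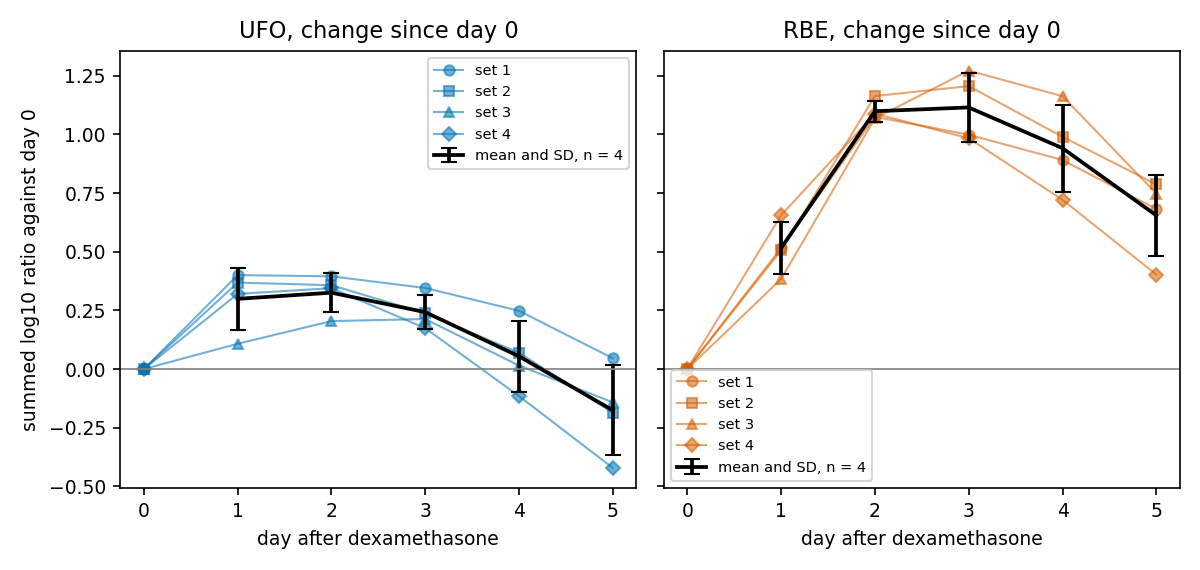
Summed log10 ratio against day 0 for UFO and RBE at days 0 to 5, with a coloured line for each of the 4 sets and a black line for the mean with its SD. RBE reached 1.10 at day 2 and 1.11 at day 3 and stood at 0.65 at day 5, while UFO reached 0.33 at day 2 and stood at -0.18 at day 5.

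The order of the UFO means, from high to low, was day 2, day 1, day 3, day 4, day 0 and day 5. Neighbours in this order were compared in 1 fit, the interval coefficients from all arrays. The fall from day 3 to day 4 passed (adjusted p = 0.0427). Day 1 against day 2 did not (0.026, 95% interval -0.066 to 0.12, adjusted p = 0.846), nor did day 1 against day 3 (-0.057, -0.19 to 0.074, adjusted p = 0.752, with 1.73% of features called). Day 0 against day 4 (0.054, -0.13 to 0.24, adjusted p = 0.889, with 3.42% called) and day 0 against day 5 (-0.18, -0.38 to 0.030, adjusted p = 0.540, with 3.27% called) did not pass either. The order of the RBE means was day 3, day 2, day 4, day 5, day 1 and day 0. In the same fit day 4 against day 5 (adjusted p = 0.0160) and day 0 against day 1 (adjusted p = 4.01e-05) passed. Day 2 against day 3 (0.016, -0.096 to 0.13, adjusted p = 0.971), day 2 against day 4 (-0.16, -0.32 to 0.00054, adjusted p = 0.509, with 1.95% called) and day 1 against day 5 (0.14, -0.084 to 0.36, adjusted p = 0.654, with 3.1% called) did not. Neighbours that missed the threshold are not shown to be equal. With the 4 arrays of an interval fitted alone the neighbours that passed here missed it too (adjusted p = 0.369 for UFO from day 3 to day 4, and 0.812 and 0.0946 for RBE from day 4 to day 5 and from day 0 to day 1). Such a fit has 3 residual degrees of freedom, against 14 in the fit to all arrays, so a miss there does not show that a gene was unchanged.

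The late decline was also taken over both last days together. From day 3 to day 5 the UFO sums were -0.30, -0.42, -0.36 and -0.60, a factor of 2.62 lower. The RBE sums were -0.32, -0.42, -0.52 and -0.58, a factor of 2.88 lower. Every set of each gene was lower, and the sets overlapped. From the sums, with 3 residual degrees of freedom, neither change passed (-0.42 ± 0.13, adjusted p = 0.0812, for UFO and -0.46 ± 0.12, adjusted p = 0.0632, for RBE), where 0.0384% of features passed as lower. The interval coefficients from all arrays gave adjusted p-values of 9.02e-04 for UFO and 0.00208 for RBE, and 0.00328 and 0.00811 with the tissue set as a block. In the fit without the block 0.737% of features were called lower over these days.

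RBE was compared with UFO within each set in 10 comparisons, with an exact two-sided sign-flip permutation test whose smallest p with 4 sets lies above the threshold of 0.05, so no comparison could pass. From day 0 to day 1 RBE minus UFO was 0.22 ± 0.11 (0.12 to 0.34, higher in 4 of 4 sets). From day 1 to day 2 it was 0.56 ± 0.11 (0.41 to 0.67, higher in 4 of 4). Both had the smallest exact p (0.208 adjusted over the 10). From day 4 to day 5 it was -0.056 ± 0.14 (-0.26 to 0.053, exact p = 0.625), and over day 3 to day 5 -0.042 ± 0.086 (-0.17 to 0.015, exact p = 0.625). The net difference at day 5 against day 0 was 0.83 ± 0.14 (0.64 to 0.97, higher in 4 of 4). The genes thus moved apart over the first days by more than their spread between sets, and over the last days their difference lay on both sides of 0.

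The dye assignment gives another view of the same values. Where the later day was in Cy5 the deposited UFO ratios from day 0 to day 1 were 0.40 and 0.11, and where it was in Cy3 they were -0.37 and -0.32. For RBE they were 0.52 and 0.38 against -0.51 and -0.66. Over the 20 arrays the sign of the deposited value followed the dye assignment, in the direction of the interval mean, on 17 arrays for UFO and 18 for RBE. The interval mean comes from the same arrays, so these counts are a description. The dye coefficient of the fit was 0.0016 for UFO (adjusted p = 0.961) and -0.029 for RBE (adjusted p = 0.366), while 28.9% of features were called for it. If the values had been turned before deposit, the interval means would be -0.045 to 0.062 for UFO and -0.066 to 0.048 for RBE. In that reading limma would call 0 of 10 changes (0 at an unadjusted p under 0.05). This follows from the deposited signs, which cancel in the means, and is no separate test of the direction.

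**Figure D3:**
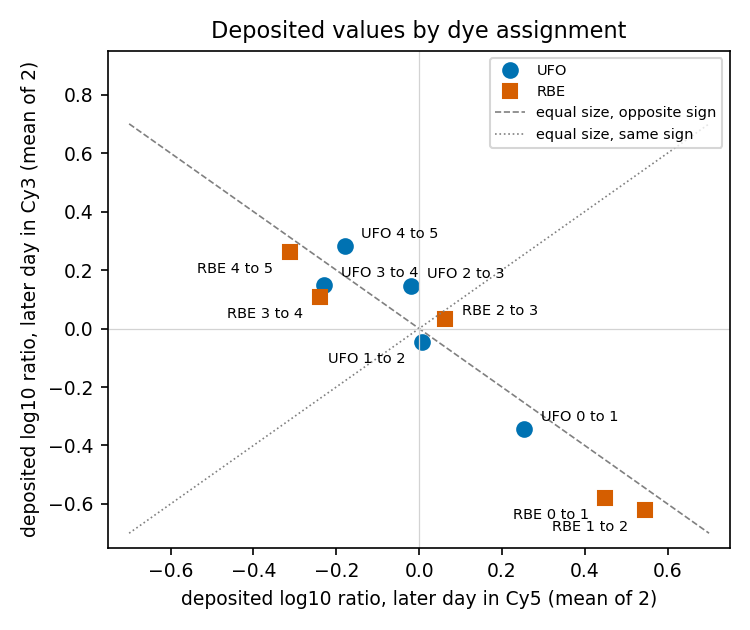
Deposited log10 ratio of UFO and RBE for each interval, averaged over the 2 arrays that carried the later day in Cy5 (horizontal axis) and the 2 that carried it in Cy3 (vertical axis). The larger changes lie near the dashed line of equal size and opposite sign, as the 0.52 and 0.38 against -0.51 and -0.66 of RBE from day 0 to day 1.

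A rise from day 0 to day 1 together with a fall from day 4 to day 5 was uncommon. Both calls were made for 9 of 28633 features (0.0314%), and UFO and RBE were among them. The others were AT2G05260, AT4G20040, AT5G39630 and 4 probes without a gene name, chosen here by this pattern and so given as a description. The unnamed probe A003232_01 rose by 0.33 from day 0 to day 1, between UFO (0.30) and RBE (0.52), and had the largest fall of the 9 from day 4 to day 5 (-0.41). It kept both calls without each set in turn, which neither UFO nor RBE did. In the blocked fit 4 features had both calls, UFO and RBE among them. With arrays scaled to 1 spread 3 features had both calls, and leaving out sets 1 to 4 in turn gave 1, 1, 2 and 2. UFO was among these without set 3 alone, and RBE in none of these 5 settings.

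**Figure D4:**
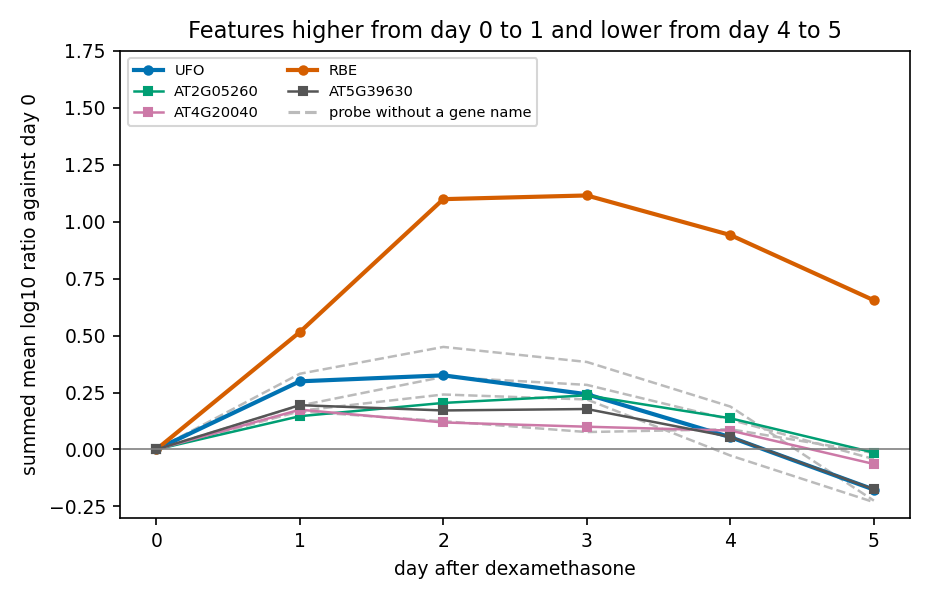
Mean log10 ratio against day 0, summed over the interval means, for the 9 features called higher from day 0 to day 1 and lower from day 4 to day 5. UFO and RBE are drawn as thick lines, and RBE stands at 0.65 at day 5 while UFO stands at -0.18.

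Other genes around petal formation were looked up in lists of 62 genes: partners in the SCF complex, floral organ identity, petal initiation, organ boundaries and TCP factors, petal growth, targets of AP3 and PI, and zinc finger relatives of RBE. Probes with a gene name stood for 9 of them. LFY, AP3, PI, the SCF core subunits, and the boundary and TCP genes are not analysed here. From day 0 to day 1, 1 of the 9 was higher and 1 lower (2 and 2 at an unadjusted p under 0.05), against 3.32% of all features called. The median was 0.032, against 0.00013 over all features.

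The gene that rose was JAG, a zinc finger gene of organ growth. Its ratios were 0.38, 0.33, 0.30 and 0.39 in sets 1 to 4, a 2.24-fold rise (0.35 ± 0.046, adjusted p = 2.93e-04). From day 1 to day 2 they were 0.21, 0.32, 0.19 and 0.46 (0.30 ± 0.12, adjusted p = 0.00409), with the call lost without set 2 or 4 (0.30 and 0.26, adjusted p = 0.160 and 0.0933). Of all features, 0 were called in this interval without set 2 and 50 without set 4, against 329 with all sets. JAG rose in the same intervals as RBE, and at day 5 it stood 5.42-fold above day 0 (adjusted p = 0.0230). Unlike RBE and UFO it did not pass the test from day 4 to day 5 (-0.098 ± 0.12, adjusted p = 0.428), a difference between genes that was not tested.

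The gene that fell was SAP, known from floral organ development as an F-box gene. Its ratios from day 0 to day 1 were -0.27, -0.19, -0.099 and -0.17, each a mean of 2 probes, which measured -0.13 and -0.23 over the sets. The mean was -0.18 ± 0.072, 1.52-fold lower (adjusted p = 0.0231), where 2.17% of features passed as lower. With the tissue set as a block the adjusted p was 0.0646. The call was lost without set 1, 2 or 4 (-0.16, -0.17 and -0.17, adjusted p = 0.258, 0.115 and 0.165). At day 5 the SAP sums were -0.38, -0.38, -0.38 and -0.50, a factor of 2.57 below day 0 (-0.41 ± 0.059, adjusted p = 0.0237, where 1.3% of features passed as lower). The 2 probes differed in intervals of this sum, with -0.16 and 0.044 from day 1 to day 2 and -0.19 and -0.020 from day 4 to day 5.

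From day 1 to day 2 JAG was the 1 gene of 9 called, and in the later intervals limma called 0 of 9 (at an unadjusted p under 0.05, 2 higher from day 2 to day 3, 1 higher and 1 lower from day 3 to day 4, and 3 lower from day 4 to day 5). Over all features 1.15%, 0.419%, 1.35% and 0.758% were called in these intervals in order, so 0 or 1 of 9 is near the background and is no result about the list. ROXY1, a glutaredoxin gene of petal initiation, measured -0.24, -0.11, -0.16 and -0.13 from day 3 to day 4 (-0.16 ± 0.058, adjusted p = 0.0992), close to the UFO and RBE values of that interval. PTL, a trihelix gene of petal initiation that acts before RBE, had interval means of -0.014 to 0.043. KNU, a zinc finger gene that ends stem cell activity in the flower, measured 0.30, 0.21, -0.041 and 0.33 from day 3 to day 4 (0.20 ± 0.17, adjusted p = 0.120). SEU, a corepressor gene, BPE, which limits petal size, HWS, an F-box gene of organ separation, and TAC1, an activator of telomerase, stayed between -0.084 and 0.085 in every interval.

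**Figure D5:**
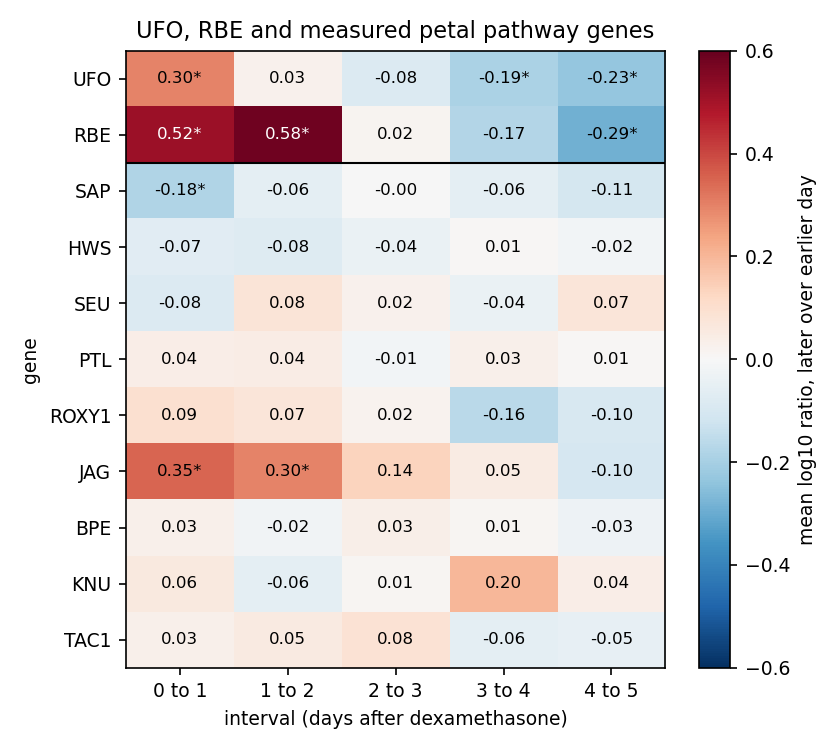
Mean log10 ratio per interval for UFO, RBE and the 9 measured genes of the petal lists, as colour and number, with an asterisk for calls at an adjusted p under 0.05. JAG shares the calls of the first 2 intervals with RBE, and UFO and RBE are the genes called from day 4 to day 5.

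Markers of meristems and of other cell types moved in the same intervals. Of 6 meristem markers 3 were measured: CLV3, a stem cell peptide gene, AGL24 and FD. FD fell from day 0 to day 1 (-0.40, adjusted p = 1.61e-04), while CLV3 measured 0.12 ± 0.12 (adjusted p = 0.386) and AGL24 -0.21 (adjusted p = 0.0829). CLV3 fell from day 4 to day 5 (-0.30, adjusted p = 0.0297, and 0.0922 with the tissue set as a block). The list's medians were -0.21, -0.094, 0.0027, -0.19 and -0.14 over the intervals. Of 11 markers of mesophyll, stomatal, vascular and anther cells 5 were measured. MUTE, of the stomatal lineage, rose from day 3 to day 4 (0.71, adjusted p = 4.24e-04, with 0.981% of features higher) and from day 4 to day 5 (0.49, adjusted p = 0.0149, with 0.562% higher), and RCA, of photosynthesis, rose from day 4 to day 5 (0.20, adjusted p = 0.0244). The anther gene A9 measured -0.20 ± 0.32 from day 4 to day 5 (adjusted p = 0.346), with -0.68 in set 4, and FAMA and LHCB4.1 measured 0.42 and 0.12 (adjusted p = 0.413 and 0.337). A9 and LHCB4.1 are each a mean of 2 probes, which measured -0.11 and -0.30 for A9 and 0.033 and 0.20 for LHCB4.1 in that interval. The calls from day 4 to day 5 depended on the sets: those of CLV3 and RCA were lost without each set in turn (adjusted p = 0.0839 to 0.233 and 0.127 to 0.160), and that of MUTE without set 1, 2 or 3 (adjusted p = 0.128, 0.160 and 0.139). All 3 calls were also lost with arrays scaled to 1 spread (adjusted p = 0.0988, 0.0927 and 0.0988 for CLV3, RCA and MUTE). The medians of that wider list were 0.032, 0.015, 0.061, 0.14 and 0.20, highest in the intervals in which UFO and RBE were lower. The part of these cells in the UFO and RBE values was not tested.

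Genes with a course most like each member were ranked by Pearson's r over the 20 arrays, among 765 named genes that changed in at least 1 interval, as a description. The arrays share tissue sets and days, so r over them is not from independent samples. For UFO these were SWEET1 (r = 0.939), a sugar transporter gene, AT3G14060 (0.927), AT1G47610 (0.914), AT5G62970 (0.913) and AT5G57720 (0.903). Each rose from day 0 to day 1, by 1.00, 0.50, 0.74, 0.48 and 0.60. SWEET1, AT3G14060 and AT5G57720 were also called higher from day 1 to day 2 (0.32, 0.26 and 0.53), where UFO measured 0.026. Those calls were lost without set 2 (adjusted p = 0.141, 0.272 and 0.111), where 0 of all features were called in that interval. None of these 5 was called lower from day 3 to day 4 or from day 4 to day 5. Over all features 0.37% and 0.196% were called lower there, so this count is near the background. For RBE they were AT5G39220 (0.943), AT5G57720 (0.904), AT1G15350 (0.893), AT1G43000 (0.886) and REM22 (0.879), a B3-domain gene. Of these 5 too, none was called lower from day 3 to day 4 or from day 4 to day 5, again near the background. The largest falls among them there were those of AT1G43000 (-0.19 in each, adjusted p = 0.0956 and 0.106). REM22 shared the first 2 rises with RBE (0.61 and 0.74) and rose once more from day 2 to day 3 (0.51, adjusted p = 0.00455, where 0.374% of features passed as higher), where RBE measured 0.016. That call of REM22 was lost with arrays scaled to 1 spread (adjusted p = 0.0607) and without set 1 or 2 (0.48 and 0.53, adjusted p = 0.171 and 0.159). Without these sets 24 and 0 of all features were called in that interval, against 120 with all sets. UFO and RBE had r = 0.819 with each other, and each ranked 21 in the list of the other.

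The nearest measured genes on the chromosome are given as values. Of the genes next to UFO in the TAIR10.1 order AT1G30925, AT1G30930 and AT1G30960 were measured, and their interval means lay between -0.078 and 0.071. Of those next to RBE, AT5G06050 measured -0.044 from day 0 to day 1 (95% interval of the fit -0.12 to 0.032) and -0.062 from day 1 to day 2 (-0.14 to 0.014). Both intervals lie below the RBE changes of 0.52 and 0.58, a difference between genes that was not tested. AT5G06060 measured -0.38 (-1.26 to 0.50) and 0.073 (-0.81 to 0.95), too wide to set beside RBE. Of the 15 changes next to UFO and the 10 next to RBE limma called 0 (0 at an unadjusted p under 0.05), and with 0.419% to 3.32% of all features called per interval this count is near the background.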

How the data were processed

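Relative RNA levels were measured on 20 two-colour arrays. The deposited values, 1 per probe and array, were read as log10 ratios, since the authors' values end at exactly 2 and -2, or 100-fold in log10. Amplified RNA was made by in vitro transcription before dye coupling, per the labels' protocols. The background correction, normalization, numerator and genome build were not given in the sources used here. Array medians lay between -0.00333 and 0.0120, so centring before deposit is likely but unknown. Values were taken as Cy5 over Cy3, and the sign was turned on the 10 arrays that carried the later day in Cy3. No signal or depth was used, so dim probes could not be left out, and the number of arrays limits the precision.

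Of 30741 spots 547 control or unannotated ones were left out. The platform annotation, updated through the RefSeq table of TAIR10.1 for names alone, gave 18740 probes 1 gene, 1 probe several and 11453 none. Probes of a gene were averaged. Features with values on 3 of 4 arrays in each interval were fitted with limma 3.58.1 in R 4.3.3, with 5 interval coefficients and 1 dye coefficient (14 residual and 2.07 prior degrees of freedom). Sums within sets had 3 residual and 1.72 prior degrees of freedom. The fits were tested on simulated data with 200 changed features and errors drawn independently for each array. For true changes of 0.2, 0.4 and 1.2 from day 0 to day 1, the interval fit recovered 106, 177 and 195 of the 200. The sums from day 0 to day 5 recovered 0, 0 and 144. In the data 449 features passed as higher and 372 as lower over these days, and SAP passed at -0.41. The simulated counts are thus not the recovery rate of the sums in the data. A missing call for a sum of 0.2 or 0.4 still does not show that the level was unchanged.

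The labels mark each set as independent tissue. The same set is followed over the days, so the set number pairs arrays. Residuals of consecutive intervals correlated with a median r of -0.083 within sets (16 pairs) and 0.039 between sets (48 pairs).

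The members, gene lists and tests were chosen with earlier results of these data known. The text names UFO and RBE, the list genes, and the 5 named genes most like each. Alternatives were the set as a block, no dye coefficient, arrays scaled to 1 spread, limit values as missing, the 4 arrays alone, and each set left out.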

Additional observations from a re-analysis of the deposited data

Results flagged for a closer look

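The change of UFO differed between the 5 intervals by the F test of limma (adjusted p = 8.21e-04), from 0.30 from day 0 to day 1 to -0.23 from day 4 to day 5. The change of RBE differed between the intervals as well (adjusted p = 1.33e-05), from 0.58 from day 1 to day 2 to -0.29 from day 4 to day 5. By Dixon's criterion for 4 values, 0 of the UFO and RBE changes had a set far from the others, and 4 sums of list genes did, among 166 groups of 4 sets tested. Chance alone flags about 1 in 20 such groups. SAP at day 5 against day 0 had -0.50 in set 4, with the other sets at -0.38. JAG at day 3 against day 0 had 0.99 in set 4, with the others at 0.71 to 0.72. ROXY1 at day 2 against day 0 had 0.0080 in set 1, with the others at 0.21 to 0.24. FAMA, of the stomatal lineage, at day 5 against day 0 had 2.63 in set 3, where its ratio from day 3 to day 4 stood at the limit of the scale, with the others at 0.86 to 1.11.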

How the results depend on the processing

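No result reported for UFO or RBE changed direction past the threshold under any alternative run. With the set as a replicate block the paired fit lost the call of UFO from day 3 to day 4 (-0.19) and the differences between consecutive intervals (UFO -0.27, RBE -0.57), left 4 features with both a first rise and a late fall, and changed no other call of either gene. Sums of interval coefficients passed for UFO at day 2 (0.33) and from day 3 to day 5 (UFO -0.42, RBE -0.46), with and without the block. Without a dye coefficient the UFO difference (-0.27) missed the threshold. Scaled arrays lost the calls from day 4 to day 5 (UFO -0.21, RBE -0.26), of RBE at day 2 (1.11) and day 3 (1.13) and of both differences (-0.31 and -0.52), and left 3 features with both changes. With the 4 arrays of an interval fitted alone no call passed (UFO 0.30, -0.19 and -0.23, adjusted p = 0.238 to 0.812; RBE 0.52, 0.58 and -0.29, adjusted p = 0.0946 to 0.812). Those fits had 3 residual degrees of freedom, against 14 in the fit to all arrays. Leaving out a set gave means of 0.26 to 0.37, -0.22 to -0.16 and -0.25 to -0.20 for the UFO calls in order. For RBE after day 1 it gave 0.55 to 0.63 and -0.33 to -0.25. The calls lost without a set are named with each result above. RBE against day 0 gave 1.08 to 1.11, 1.06 to 1.16, 0.87 to 1.01 and 0.61 to 0.74 at days 2 to 5. The differences gave -0.37 to -0.22 (UFO) and -0.61 to -0.53 (RBE), the UFO F statistic 12.3 to 46.1, and 1 to 2 features had both changes. The cause of a lost call was not tested for any of these alternatives. Over all features, from 950, 329, 120, 387 and 217 calls in the intervals in order, the block left 605, 147, 57, 228 and 114, scaling 1135, 135, 122, 660 and 92, and leaving out a set 195 to 1040, 0 to 341, 0 to 189, 108 to 337 and 35 to 96. Limit values as missing changed no call of either gene. The files give no signal over background, so how brightly the probes read cannot be set beside these values.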
